A study of Mus musculus with 2 samples.

Results

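The 49 genes described here encode parts of the BMP and TGF-beta signalling pathway: 14 ligands, 12 receptors, 10 Smads and Smurfs, 5 antagonists, 4 Id targets and 4 latent TGF-beta binding proteins. They are a hand-made list, all were found by symbol among the 21887 protein-coding genes of the RefSeq gene table, and each was given the listed regions that overlapped its annotated span widened by 5 kb on both sides. This gave 75 of the 35861 regions in the deposited list, and no region was shared by 2 members. The regions are stretches of the genome in which methylated DNA captured with the MBD2 protein was more abundant in a Control library than in a Uhrf1 conditional knockout (Uhrf1 cKO) library. Both libraries came from primary chondrocytes of knee cartilage, taken at postnatal day 3 on a C57BL/6 background and treated at confluence with recombinant human BMP-2 at 100 ng/ml for 24 hours. Both groups thus received the ligand of the pathway described, and no untreated cells were compared. The sources used here give neither the promoter that drives the deletion of Uhrf1, nor the number of animals, nor whether cells were pooled.

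BMPs, GDFs, activins and TGF-betas are secreted dimers that bring type I and type II receptor kinases together. The activated type I receptor phosphorylates receptor-activated Smads, which enter the nucleus with Smad4 and change the transcription of targets such as the Id genes. Secreted antagonists bind the ligands, inhibitory Smads and Smurf ubiquitin ligases dampen the signal inside the cell, and latent TGF-beta binding proteins hold TGF-beta in the matrix. In growing cartilage, BMP signalling promotes chondrogenesis and chondrocyte maturation, and TGF-beta restrains the later steps. Uhrf1 recognises hemimethylated DNA and is needed to copy methylation onto new DNA strands.

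There was 1 library per genotype, so no difference has a replicate check and no p-value was computed. The Control library held 9782276 tags (sequenced reads, 44.8% of all its tags) and the Uhrf1 cKO library 15039206 (76.1%) after the authors kept at most 1 tag per position, and the part of this gap in the list was not tested. Control tag counts, folds and FDR values are the authors' own values for each region. The fold divides the Control tags at a region's summit by a local background estimated from the Uhrf1 cKO library. The FDR, in percent, sets regions called with the libraries exchanged against those called as listed. The list holds regions of higher Control signal, so a gene without a region may have had no methylation in Control, no difference, a difference below the limit, or more signal in Uhrf1 cKO. It measures no expression, so the cell type could not be checked by marker level: 4 of 8 chondrocyte marker genes had a region within 5 kb, beside 47.4% of all coding genes, as had 4 of 4 of fibroblast and synovium, 3 of 3 of blood, 2 of 3 of endothelium and 0 of 3 of muscle.

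Promoter sequences are shown first. A region lay within 1 kb of the start of transcription in 1 of the 33 members with a known start, beside 3.98% of coding genes with one. A start was taken from the RefSeq promoter table (GRCm38.p6, the assembly named mm10), which matched 33 of the 49 members with 41 promoters. The sequences below are the 250 bases before the start of the 3 members with the region nearest to a start, Tgfbr2, Smurf2 and Smad9, and of Id4, a BMP target with a region beyond its far end. They read 5′ to 3′ on the gene's strand, and capitals mark CG dinucleotides, the site at which mammalian DNA is methylated and which MBD2 binds when methylated. Tgfbr2 lies on the minus strand (chr9:116175364-116175613), as does Smurf2 (chr11:106920716-106920965), and Smad9 (chr3:54755332-54755581) and Id4 (chr13:48260866-48261115) lie on the plus strand.
Tgfbr2: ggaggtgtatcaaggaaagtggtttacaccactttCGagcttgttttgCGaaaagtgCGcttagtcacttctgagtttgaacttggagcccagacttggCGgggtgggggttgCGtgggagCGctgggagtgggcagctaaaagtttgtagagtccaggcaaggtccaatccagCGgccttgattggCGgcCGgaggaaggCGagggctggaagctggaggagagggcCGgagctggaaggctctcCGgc
Smurf2: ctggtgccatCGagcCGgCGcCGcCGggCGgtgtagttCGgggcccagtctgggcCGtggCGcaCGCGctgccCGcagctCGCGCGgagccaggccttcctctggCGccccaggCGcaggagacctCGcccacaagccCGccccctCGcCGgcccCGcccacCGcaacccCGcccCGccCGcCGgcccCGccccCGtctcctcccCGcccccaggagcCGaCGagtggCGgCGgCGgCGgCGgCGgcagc
Smad9: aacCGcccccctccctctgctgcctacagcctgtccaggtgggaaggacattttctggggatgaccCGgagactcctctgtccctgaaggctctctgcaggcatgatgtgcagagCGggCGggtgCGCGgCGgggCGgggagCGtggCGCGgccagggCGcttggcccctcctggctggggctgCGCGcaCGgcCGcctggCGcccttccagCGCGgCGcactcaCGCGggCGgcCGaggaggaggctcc
Id4: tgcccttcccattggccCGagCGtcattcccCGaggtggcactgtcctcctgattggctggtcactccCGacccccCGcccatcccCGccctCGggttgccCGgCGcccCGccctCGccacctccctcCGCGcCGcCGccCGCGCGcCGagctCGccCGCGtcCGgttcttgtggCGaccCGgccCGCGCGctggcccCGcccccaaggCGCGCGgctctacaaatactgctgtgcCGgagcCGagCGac
These 4 stretches held 12, 38, 24 and 35 CG dinucleotides. No listed region overlapped the 300 base promoter (250 before and 50 after the start) of any of the 41 member promoters, against 0.823% of the 21263 promoters of coding genes in the table. The sequence of the regions themselves, and whether they lie in exons, introns or UTRs, were not analysed here.

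Member promoters were rich in CG. Their median was 22 CG dinucleotides in the 250 bases before the start (interquartile range 11 to 28), beside 10 (3 to 19) over all coding promoters, and their median GC content was 66.4% beside 55.6%. At least 10 were found in 31 of 41 member promoters (75.6%) and in 50.1% of all. Among receptors the count ran from 1 at a start of Bmpr1b to 49 at Acvr2a. The Smads and Smurfs with an annotated start all lay between 22 and 38, and Smad2, Smad4 and Smad7 had none in the promoter table. Ltbp3 (2), Inhba (3), Bmp5 (4) and Eng (4) were among the lowest. GGCGCC, the GC-rich element bound by BMP Smads, reads the same on both strands and contains a CG. It occurred in 12 member promoters (29.3%, beside 12.3% of all), with Ltbp4 counted at more than 1 neighbouring start. A share among promoters of like GC content was not computed. The genes were Id2, Id4, Smad5, Smad9, Smurf2, Chrd, Grem1, Ltbp4, Bmpr1a, Bmpr2 and Tgfbr1, and not Tgfbr2 or Id3. CAGAC, a Smad-binding element searched on both strands, occurred in 20 (48.8%, beside 40.9% of all), among them Tgfbr2, Smurf2 and Id3. A match of letters is a description and not a binding site. Over all coding promoters, a region within 1 kb of the start was about as frequent with under 10 CG dinucleotides (3.66%) as with 10 or more (3.47%).

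**Figure D1:**
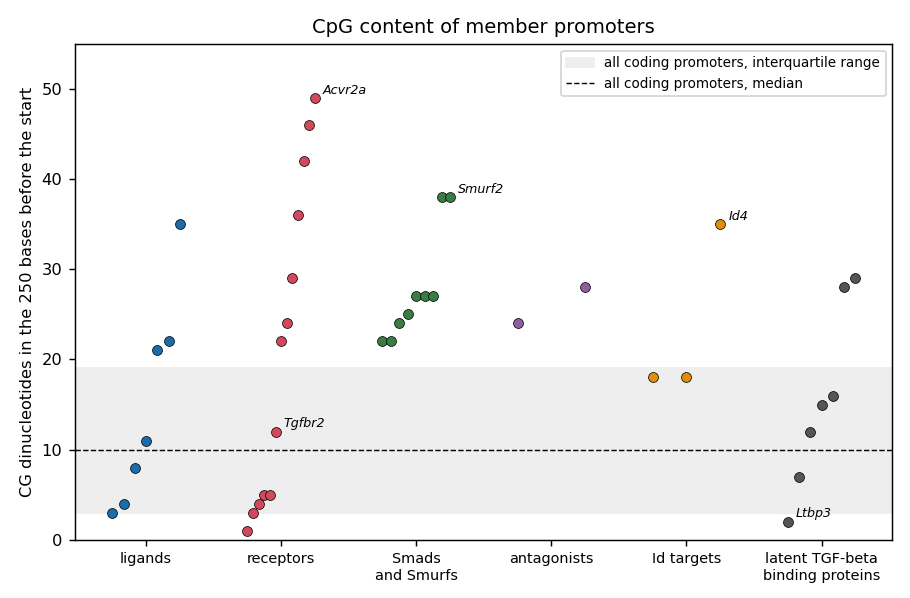
CG dinucleotides in the 250 bases before each of 41 annotated starts of 33 members (points, y axis), by role (x axis). The dashed line and grey band give the median (10) and interquartile range (3 to 19) of all coding promoters. All points of the Smads and Smurfs lie at 22 or above, and receptors span 1 to 49.

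Of the 49 members, 32 (65.3%) had at least 1 region within 5 kb, beside 47.4% of all protein-coding genes. By role these were 9 of 14 ligands, 8 of 12 receptors, 9 of 10 Smads and Smurfs, 1 of 5 antagonists, 2 of 4 Id targets and 3 of 4 latent TGF-beta binding proteins. A region overlapped the span itself in 28 members (38.2% of all coding genes), and 25 had a region with an FDR of at most 5% (35.1% of all coding genes). Members were longer than most genes, with a median span of 39.6 kb beside 17.2 kb, and the share with a region followed length. Under 10 kb, 4 of 10 members had one (23.1% of coding genes of that length), from 10 to 50 kb 11 of 18 (51.8%), from 50 to 150 kb 14 of 17 (74.6%), and from 150 kb 3 of 4 (87%). Per 100 kb of widened span, members held 2.08 regions (95% exact Poisson interval 1.64 to 2.61, counting error only), beside 1.95 over all coding genes. The density of regions at the members was thus near the background.

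**Figure D2:**
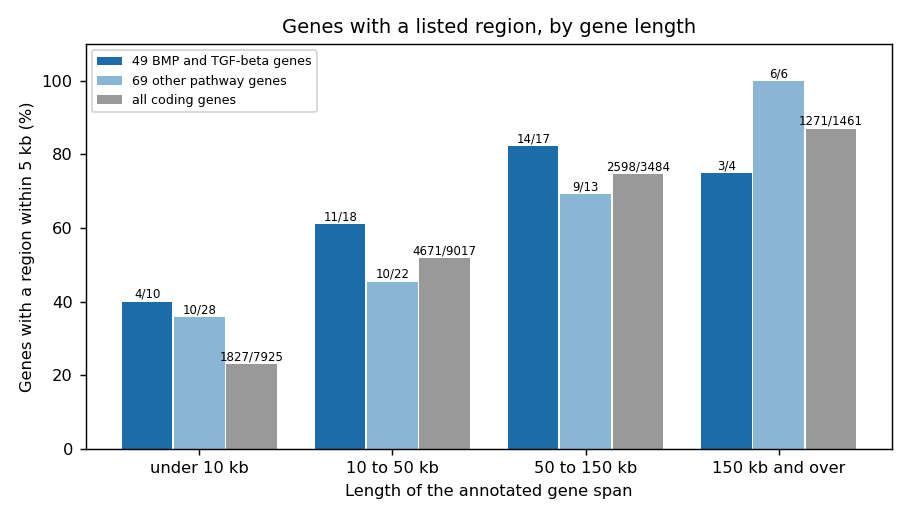
Percent of genes with a listed region within 5 kb (y axis) in 4 classes of gene length (x axis), for the 49 members, 69 other genes of the pathway and all coding genes; labels give genes with a region over genes in the class. In all coding genes the share climbs from 23.1% under 10 kb to 87% from 150 kb, and the members follow the same order up to 150 kb (4 of 10, 11 of 18, 14 of 17), with 3 of 4 beyond.

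The 75 regions were much like the rest of the list. They held 18 to 742 Control tags, with a median of 128 (interquartile range 78.5 to 203), beside 103 (59 to 175) over all regions. Their median fold was 11.88 (8.8 to 14.92), beside 12.18 (8.55 to 18.3), and 60% had an FDR of at most 5%, beside 56.9%. Folds reached 20 or more in 11 of them (14.7%, beside 21.5%). These 11 had a median of 50 tags and the other 64 a median of 132.5. The FDR was over 5% for 5 of the 11. The tag counts of the 30 regions with an FDR over 5% had a median of 59.5, beside 176 for the 45 others.

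**Figure D3:**
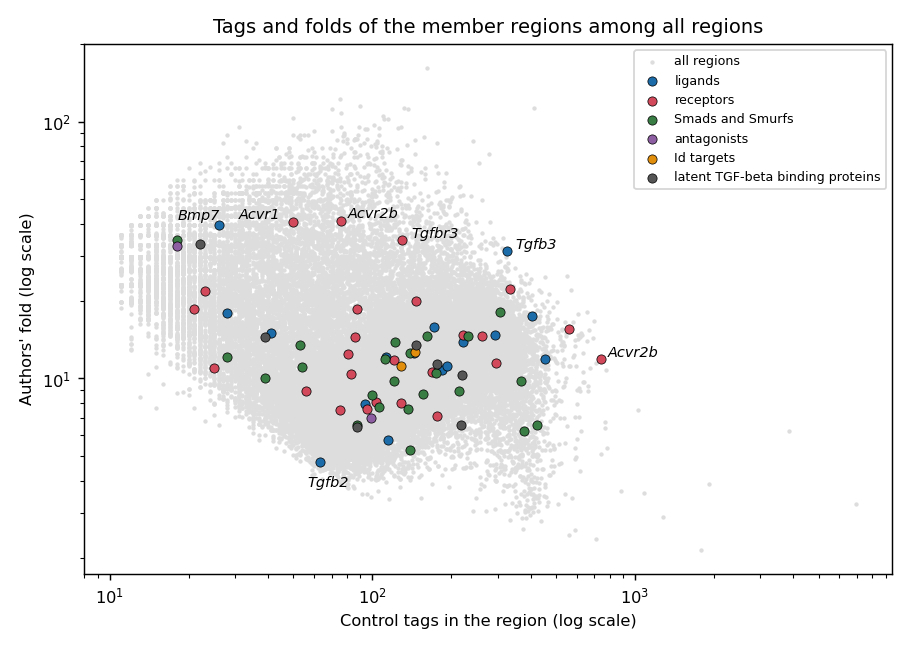
Control tags (x axis, log scale) and the authors' fold (y axis, log scale) of the 75 member regions, coloured by role, over all 35861 regions (grey). Tgfb3 (325 tags, 31.25-fold) stands at the upper right edge of the member regions, the Acvr2b region with 742 tags lies farthest right, and Tgfb2 (4.74-fold) is lowest.

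All 3 TGF-beta ligand genes and 5 of the 6 genes from Bmp2 to Bmp7 carried regions. These genes span 7.1 to 154.6 kb. Among coding genes the share was 23.1% under 10 kb, 51.8% from 10 to 50 kb, 74.6% from 50 to 150 kb and 87% from 150 kb. With an FDR of at most 5%, 2 of the 3 and 3 of the 6 had a region, beside 35.1% of coding genes of all lengths. The share at this FDR limit was not computed by gene length. Tgfb3, which encodes one of the TGF-betas of developing skeleton and palate, had the largest fold among the ligand regions with an FDR of at most 5%: 325 tags (95% exact Poisson interval 291 to 362) at 31.25-fold with an FDR of 0%, at chr12:86066038-86066761 inside the gene. Tgfb1, the most widely expressed TGF-beta, had 1 region at chr7:25699718-25700354 with 294 tags and 14.77-fold, 12716 bp downstream of its start. Tgfb2 had 1 region of 63 tags with a 4.74-fold excess, the lowest fold among the members, and an FDR of 100%. Their folds thus ran from the lowest among the members to 31.25.

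Bmp6, a BMP of hypertrophic cartilage, held 6 regions along its 154.6 kb, from 7164 bp downstream of the start to 12010 bp before the transcript end. The first, chr13:38352880-38353799, had 453 tags at 11.88-fold. The remaining 5 had 28, 221, 184, 94 and 113 tags in order along the gene, at 17.97, 13.85, 10.8, 7.98 and 12.16-fold, and 4 of all 6 had an FDR of at most 0.24%. Bmp3, which counteracts osteogenic BMPs, had 1 region of 405 tags at 17.54-fold (chr5:98879424-98880091). Bmp7, an osteogenic BMP, had 2: 26 tags at 39.55-fold with an FDR of 6.63%, and 193 tags at 11.21-fold with an FDR of 0%. The larger Bmp7 fold was therefore the weaker of the pair by FDR. Bmp1 was counted among the ligands, but it encodes a procollagen-cleaving protease rather than a growth factor. Its 2 regions, included in the ligand counts and medians, had 171 tags at 15.84-fold and 144 tags at 12.53-fold.

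Bmp4, a BMP of early skeletal patterning, had a region of 115 tags at 5.77-fold (FDR 42.61%), and Bmp5 one of 41 tags at 15.07-fold (FDR 17.4%). Bmp2, the gene of the ligand added to the cultures, had no region within 5 kb, and the nearest lay 65.3 kb away. Nor did Gdf5 and Gdf6, which pattern joints, Gdf10, or Inhba, which encodes an activin subunit. The nearest region was 17.2 kb from Gdf5, 68.0 kb from Gdf6, 48.1 kb from Gdf10 and 123.4 kb from Inhba. Bmp2 and Inhba stood in sparse surroundings, with 4 regions each in the 500 kb on either side, whereas Gdf5 had 42.

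**Figure D4:**
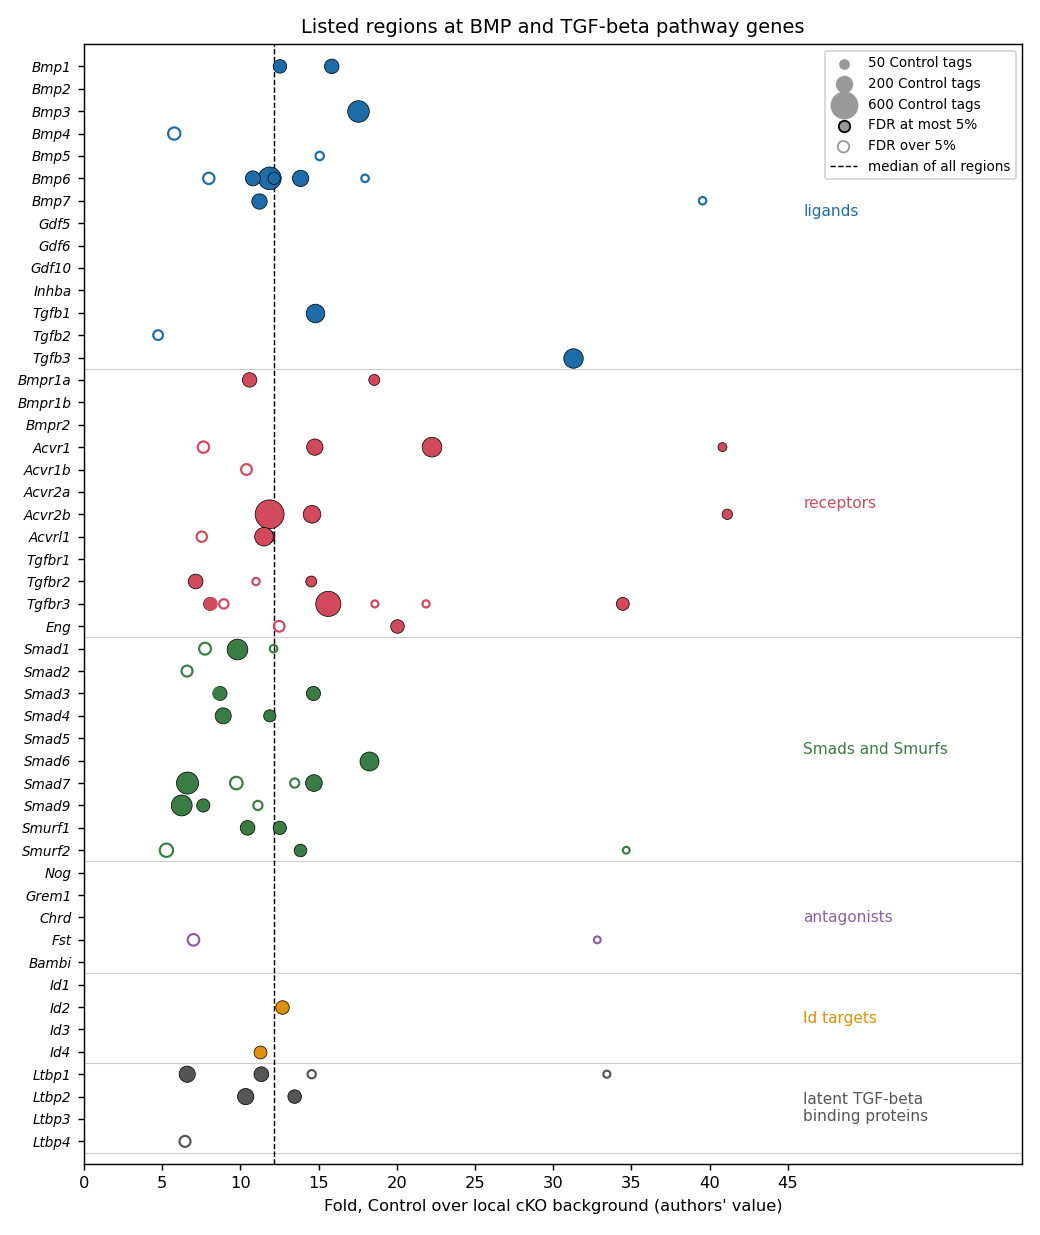
The authors' fold (x axis) of every listed region within 5 kb of each of the 49 members (rows, grouped by role); area grows with Control tags, filled points have an FDR of at most 5%, open points a higher one, and the dashed line is the median of all regions (12.18). Rows without points are the 17 members without a region, among them 4 of the 5 antagonists.

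Type I receptors had regions in 4 of 6 genes, type II receptors in 2 of 4 and the co-receptors in both. The receptor genes span 16.8 to 332.5 kb. Among coding genes the share was 51.8% from 10 to 50 kb, 74.6% from 50 to 150 kb and 87% from 150 kb. Acvr1, a type I receptor for BMPs, held 4 regions in its 120.4 kb. In genome order they had 334 tags at 22.25-fold (chr2:58472958-58473598), 221 at 14.76-fold, 50 at 40.82-fold (FDR 0.19%) and 95 at 7.64-fold (FDR 17.52%). Acvr1 thus had 3 regions with an FDR of at most 0.19%, and the nearest of all 4 lay 21943 bp downstream of the start. Bmpr1a, the type I receptor needed for chondrogenesis together with Bmpr1b, had 2. One of 87 tags at 18.56-fold (FDR 0.19%, chr14:34410789-34411177) covered the transcript end, and one of 168 tags at 10.59-fold lay inside the gene, 67068 bp from the start. Neither Bmpr1a region was near the promoter.

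Acvrl1, the endothelial type I receptor, had 3 regions in only 16.8 kb: 121 tags at 11.8-fold, 75 at 7.53-fold (FDR 61.98%) and 296 at 11.51-fold. Its neighbour Acvr1b, an activin type I receptor 28.7 kb away, had none in its span and 1 of 83 tags at 10.39-fold (FDR 8.55%) starting 275 bp past the transcript end. Bmpr1b and Tgfbr1 had none. Bmpr1b is 332.5 kb long, and 10.1% of the 557 coding genes of 300 kb and over had no region within 5 kb. The nearest to Bmpr1b lay 9.76 kb outside the gene, and only 6 lay within 500 kb on either side. For Tgfbr1, the type I receptor for TGF-beta, the nearest was 64.5 kb away, with 13 in the 500 kb flanks.

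Acvr2b, a type II receptor for activins and some BMPs, carried both the region with the most tags and the region with the largest fold among the members. The former, chr9:119433482-119434763, was 1282 bp long with 742 tags (690 to 797) at 11.87-fold. The latter, chr9:119442265-119442585, had 76 tags (59.9 to 95.1) at 41.13-fold with an FDR of 0% and began 117 bp past the transcript end. A further one of 262 tags at 14.58-fold lay 6001 bp downstream of the start. Its close relative Acvr2a, of 89.2 kb, had none, and the nearest region was 26.7 kb away. Bmpr2, the type II receptor for BMPs, also had none in 113.8 kb, with the nearest at 16.5 kb.

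Tgfbr2, the type II receptor for TGF-beta, was the only one of the 33 members with an annotated start to have a region within 1 kb of it, beside 3.98% of coding genes with a start. That region, chr9:116176189-116176494, had 86 tags (68.8 to 106) at 14.53-fold with an FDR of 1.01%, and its near edge was 826 bp upstream of the start, outside the printed promoter. Tgfbr2 also had 176 tags at 7.14-fold in a region 2437 bp past the transcript end, and 25 tags at 11-fold (FDR 100%) inside the gene. Tgfbr3, which encodes the co-receptor betaglycan, had 7 regions, the most of any member, in 183.1 kb. The strongest were chr5:107109230-107110009 with 558 tags at 15.62-fold and chr5:107258076-107258632 with 130 tags at 34.45-fold, both with an FDR of 0%. Of its other 5, that of 129 tags at 8.06-fold had an FDR of 0.54% and the rest were over 50%. Eng, the endothelial co-receptor endoglin, had 146 tags at 20.01-fold 3209 bp downstream of its start, and 81 at 12.48-fold (FDR 35.36%).

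Smads and Smurfs carried regions in 9 of 10 genes, all but Smad5, whose nearest region was 12.1 kb away. These genes span 28.6 to 111.2 kb, and 51.8% of coding genes of 10 to 50 kb and 74.6% of those of 50 to 150 kb had a region. Their median fold was 10.01 over 23 regions, from 5.27 to 34.67, beside 13.19 for the 16 of ligands and 12.48 for the 25 of receptors. These medians lie within the interquartile range of all regions (8.55 to 18.3, median 12.18). Regions per 100 kb of widened span were 2.93 (95% exact Poisson interval 1.86 to 4.40), beside 2.06 (1.18 to 3.35) for ligands and 1.87 (1.21 to 2.77) for receptors. The receptor-activated Smads of the BMP branch are Smad1, Smad5 and Smad9. Smad1 had 4 regions, of which 1 had an FDR of at most 5%: 369 tags at 9.76-fold, 4302 bp downstream of the start. Smad9 had 3, all in the first 25% of the gene's length, with 54 tags at 11.12-fold (FDR 100%) 1765 bp from the start, 136 at 7.63-fold 4308 bp from it and 378 at 6.25-fold 10323 bp from it. Tags increased and folds decreased along these 3 regions.

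In the TGF-beta branch, Smad3 had 3 regions, with 161 tags at 14.67-fold, 100 at 8.64-fold and 156 at 8.7-fold, and Smad2 had 1, of 87 tags at 6.59-fold (FDR 34.02%), 4529 bp outside the gene. Smad4, the shared partner, had 112 tags at 11.88-fold and 213 at 8.9-fold, with an FDR of at most 1.45%. The inhibitory Smads differed in number. Smad6, which mainly limits BMP signalling, had 1 region of 307 tags at 18.22-fold, 11588 bp downstream of the start. Smad7, which limits both branches, had 4 within 5 kb of its 28.6 kb: 232 tags at 14.7-fold and 424 at 6.62-fold inside the gene with an FDR of 0%, and 53 at 13.47-fold and 121 at 9.74-fold outside it, with an FDR over 10%.

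Smurf2 and Smurf1 encode ubiquitin ligases that mark Smads and receptors for degradation. The Smurf2 region nearest to the start, chr11:106921750-106922283, had 122 tags at 13.82-fold (FDR 0.29%) with its near edge 1035 bp upstream, just outside 1 kb. Its other 2 had 139 tags at 5.27-fold and 18 at 34.67-fold, with FDR values of 14.95% and 86.12%. Surroundings of Smurf2 were dense, with 71 regions within the 500 kb flanks, the most of any member with a region. Smurf1 had 139 tags at 12.52-fold and 174 at 10.46-fold, both deep inside the gene, the nearer one 25999 bp from the start.

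Of the 5 antagonist genes, whose median span was 9.39 kb, 1 had a region, a share near that of coding genes under 10 kb (23.1%). Fst, which encodes the activin-binding follistatin, had 18 tags at 32.82-fold (FDR 89.19%) and 99 at 7.0-fold (FDR 6.46%), so no antagonist had a region with an FDR of at most 5%. Nog and Chrd encode the secreted BMP antagonists noggin and chordin, Grem1 encodes gremlin, and Bambi a decoy receptor. Their nearest regions were 26.8, 11.5, 136.0 and 26.5 kb away. The 4 without a region measured 1.92 to 10.96 kb. Grem1 had 5 regions in its 500 kb flanks and Nog 30, so the antagonists without a region lay in both sparse and dense surroundings.

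The Id genes encode inhibitors of basic helix-loop-helix transcription factors and are direct targets of BMP Smads. No Id gene had a region in its span. Id2 had 1 of 145 tags at 12.66-fold (FDR 0.02%, chr12:25088318-25088896), 4903 bp past the transcript end, and Id4 had 1 of 128 tags at 11.23-fold (FDR 0.03%, chr13:48267056-48267503), 1028 bp past it. The nearest regions to Id1 and Id3 were 8.49 and 9.21 kb away. All 4 genes thus had one within 10 kb, as had 54.7% of coding genes of all lengths. The Id genes span only 1.16 to 4.91 kb, and 23.1% of coding genes under 10 kb had a region within 5 kb. The share within 10 kb was not computed by gene length. The promoters of Id2, Id3 and Id4 held 18, 18 and 35 CG dinucleotides, as printed above for Id4, and no region within 1 kb of the start.

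Latent TGF-beta binding proteins had regions in 3 of 4 genes, with spans of 17.6 to 387 kb. Among coding genes the share was 51.8% from 10 to 50 kb, 74.6% from 50 to 150 kb and 87% from 150 kb. Ltbp1, the longest member at 387 kb, had 4: 22 tags at 33.43-fold (FDR 51.08%), 176 at 11.34-fold, 217 at 6.6-fold and 39 at 14.56-fold (FDR 35.34%). Those of 176 and 217 tags lay 15876 and 13611 bp upstream of an internal start of Ltbp1 in the promoter table. Ltbp2, which binds fibrillin rather than TGF-beta, had 220 tags at 10.34-fold and 146 at 13.47-fold, the latter 7785 bp downstream of the start. Ltbp4 had 1 region of 87 tags at 6.46-fold (FDR 50.53%), and Ltbp3 had none, with the nearest 7.45 kb away. The density of the 4 genes was 1.22 regions per 100 kb of widened span (0.492 to 2.52), beside 1.95 over all coding genes. It was lower than for the Smads and Smurfs (2.93), with overlapping counting intervals. By gene it was 1.01 for the long Ltbp1, 1.94 for Ltbp2, 0 for Ltbp3 and 2.24 for Ltbp4.

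The widened spans of the members consist mostly of gene span, so regions placed anywhere in them would mostly lie inside genes. Per 100 kb, the 49 members held 2.09 regions in the gene span alone, beside 2.08 in the widened span. Of 50 regions at 22 members with an annotated start, 42 had the summit inside the span, 6 past the transcript end and 2 before the span. A region within 1 kb of the transcript end occurred in 3 of the 33 members (Bmpr1a, Acvr1b and Acvr2b), beside 6.35% of coding genes with a start. These 3, named after their values were seen, are all receptors. Of the 42 inside, 15 (35.7%) lay in the first 25% of the gene's length, beside 22.3% of the 15729 regions inside coding genes with a start. The next stretches of 25% held 8, 10 and 9. The 15 came from 10 genes, 3 of them from Smad9. Regions of 1 gene share their surroundings, and the difference from all genes was not tested.

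**Figure D5:**
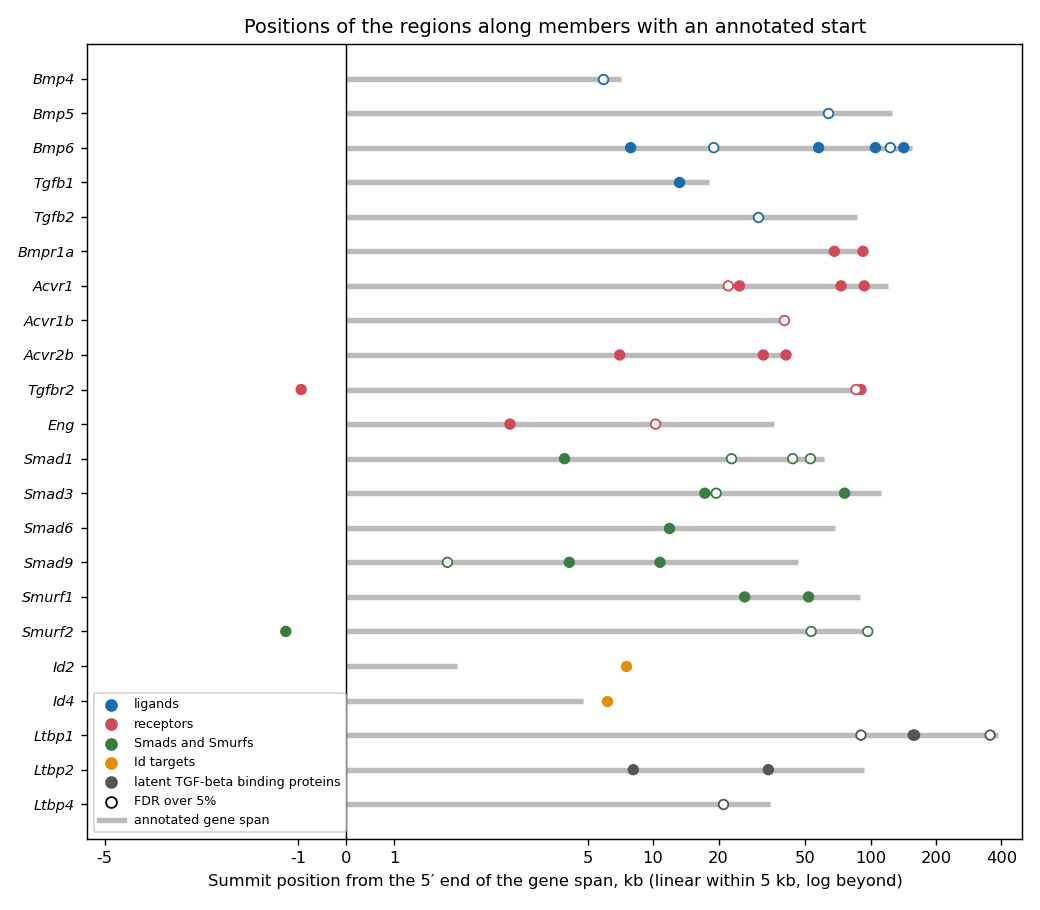
Region summits (points, filled where the FDR is at most 5%) along the 22 members with an annotated start and a region, as distance in kb from the 5′ end of the gene span (x axis, linear within 5 kb and logarithmic beyond); grey bars are gene spans. Only Tgfbr2 and Smurf2 have a point before the gene, and Id2 and Id4 have theirs beyond its far end.

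The 17 members without a region were short, with a median span of 12.9 kb beside 65.0 kb for the 32 with one. Their nearest regions were 7.45 to 136.0 kb away, with a median of 26.5 kb. In the 500 kb on either side they had 4 to 46 regions (median 15), beside 7 to 71 (median 20) for the members with one, so the surroundings overlapped widely. Bmpr1b, Bmpr2, Acvr2a and Tgfbr1 were the members above 50 kb without a region, and that all are receptors was seen afterwards. From 50 to 150 kb, 3 of 17 members had none, beside 886 of 3484 coding genes of that length. From 150 kb, 1 of 4 members had none, beside 190 of 1461 coding genes.

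A further 69 genes of the pathway had a region in 35 cases (50.7%, beside 47.4% of all coding genes), at 2.45 regions per 100 kb (1.99 to 2.98). By role these were 5 of 20 other ligands, 3 of 5 receptors, 6 of 12 antagonists, 6 of 10 genes of matrix and activation, 8 of 13 intracellular regulators and 7 of 9 targets. Median spans were 6.3, 26.6, 22.5, 104.5, 43.1 and 5.9 kb in that order. Among all coding genes the share was 23.1% under 10 kb, 51.8% from 10 to 50 kb and 74.6% from 50 to 150 kb. Among the 47 with an annotated start, Twsg1, which encodes the BMP-binding protein twisted gastrulation, was the only one with a region within 1 kb of it, 736 bp away, with 97 tags at 7.05-fold (FDR 44.42%). Runx2, a transcription factor of hypertrophy and bone, Nedd4l, a ubiquitin ligase for Smads, and Pmepa1, a TGF-beta-induced feedback inhibitor, were picked after their values were seen. Runx2 had 8 regions, up to 56.03-fold (46 tags), in 318.8 kb. Nedd4l had 15 regions, 10 of them with an FDR of at most 5%, in 333.3 kb. Pmepa1 had 8 in 52.3 kb, up to 16.35-fold (181 tags), more than any of the 49 members.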

How the data were processed

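MBD-seq reads of 1 Control and 1 Uhrf1 cKO library were reduced by the authors to 1 region list. Per the file headers, the authors called regions with MACS 1.4.2 with Control as the enriched and Uhrf1 cKO as the background file, a p limit of 1e-10, at most 1 tag per position, the larger library scaled to the smaller, a tag size of 55 bp and a modelled shift of 58 bp, although the DNA was sheared to about 300 bp per the labels' protocols. Coordinates are on mm10 (submitters' processing notes). Neither the aligner nor the treatment of reads matching several places is given in the sources used here. Per the file headers, the deposited values are a count of Control tags, a score (minus 10 times the log10 of p), a fold ratio and an FDR in percent. The Uhrf1 cKO tags of a region were not analysed here, so folds have no error, and intervals on counts cover counting error only.

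A region was given to a gene by any overlap with its RefSeq span (GRCm38.p6) widened by 5 kb. For all coding genes, a region near several genes counts once for each. Starts and strand came from the RefSeq promoter table, which had no entry used for Bmp1, Bmp2, Bmp3, Bmp7, Gdf5, Gdf6, Tgfb3, Acvrl1, Tgfbr3, Smad2, Smad4, Smad7, Nog, Fst, Bambi and Id1. The members, the 69 other genes and the markers were chosen with earlier results of these data known. All 49 members are described, and of the 69 the rule named those with a region within 1 kb of the start. Alternatives were score limits of 150 and 200, an FDR of at most 5%, other windows, summits, and joined regions. The overlap counting was tested on simulated data. Figures were drawn with Matplotlib 3.10.9, and computations ran in Python 3.11.15 with SciPy 1.17.1, pandas 2.3.3 and NumPy 2.4.6.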

Additional observations from a re-analysis of the deposited data

How the results depend on the processing

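Of 88 alternative values over 13 results, 78 stayed within 1.5 times the reported count or, for densities and medians, within the 95% interval of the reported value. The number of members with a region was 25 to 36 over the alternatives, reported as 32, and that of other pathway genes 25 to 44, reported as 35. With an FDR of at most 5%, members held 45 regions (1.25 per 100 kb) in place of 75 (2.08), their median tag count was 176 in place of 128, and 0 antagonists had a region. With a score of at least 200 the density was 1.61 per 100 kb. Over all coding genes these limits lowered the share with a region too, from 47.4% to 35.1% and 39.9%. Id targets depended on the window: 0 of 4 had a region in the gene span alone, 4 within 10 kb, and 1 by the summit rule, in place of 2. The shares over coding genes of all lengths were 38.2%, 54.7% and 47.0%. The number of members with a region near the start was 0 within 500 bp and 3 within 2 kb, in place of 1. The shares of all coding genes within 500 bp and 2 kb were not computed. No paired analysis was possible because each genotype had 1 library. The effects of depth and of the modelled fragment length on folds were not tested.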
